A study of Mus musculus with 45 samples.

Results

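The comparison asked what still differed in hepatic stellate cells late in repeated carbon tetrachloride (CCl4) injury, between 4 and 8 weeks of treatment, and whether it followed or opposed the change over the first 4 weeks. Its libraries were chosen by their titles, 3 at 8 weeks (A to C) and 4 at 4 weeks (A to D), and made up 7 of the 45 libraries of the series. The other CCl4 libraries were 4 from mice given the vehicle, corn oil, titled 0 weeks, and 3 from mice treated for 1 week. By the paper the vehicle was given over 8 weeks, so these mice were not an untreated start. Only the 8-week group matched them in length of gavage, and the 1-week and 4-week groups also differed from them in that. Other libraries came from mice on chow or on Western diet (WD) over 24 weeks. By the methods the WD mice also had fructose in their drinking water, and the chow mice did not. The rest came from stellate cells kept in suspension or cultured for up to 12 days (in vitro transdifferentiation, IVT), which the methods call technical triplicates. The labels give the strain of all CCl4 libraries as C57BL6/J, and the study's methods as C57BL/6JBomTac. The mice of the CCl4 series were male by the methods, with no allele or agent beyond corn oil and CCl4. Both were given repeatedly by oral gavage after a fast. Ages of the CCl4 mice were not given in the sources used here, so length of treatment and age cannot be told apart. Cells were enriched on a density gradient and sorted alive on the autofluorescence of their retinoids, so a stellate cell that had lost its retinoid at 4 or 8 weeks was outside the gate. Each library was taken as a different mouse. The labels do not state this, and p-values measure only the spread between these libraries.

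Hepatic stellate cells store vitamin A in lipid droplets in the healthy liver. CCl4 is turned by hepatocytes into radicals that kill the cells around the central veins, and repeated doses keep this damage going. Stellate cells then lose their vitamin A, divide and turn into myofibroblasts, the contractile cells that lay down scar collagen.

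The counts did not follow the gene identifiers listed beside them. Genes of olfactory, vomeronasal and taste receptors, defensins and keratin-associated proteins should be silent in most liver cells. Yet among 1624 rows listed under such names 35.961% had a mean count under 1, against 35.101% of all 23999 rows. Rows are therefore given by their line in the table, with row 1 the first below the header, and stand for genes without a name. The defining markers of stellate and other cell types could not be read, and neither the cell type on the labels nor other cells in the sort were checked. No sequence belongs to an unnamed row. A lower value of a row in these bulk libraries can mean fewer cells that use the gene or less RNA per cell. A higher value can mean more of either, in stellate cells or in other cells of the sort. These cannot be told apart.

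The 7 libraries held between 2318311 and 5824870 counts. A count of 3, the floor used here, was worth 0.515 to 1.29 CPM (counts scaled to a common library size) on the raw library totals, and covers counting error only. All other CPM values were scaled to totals adjusted by edgeR's TMM factors. Library B at 8 weeks was the smallest of the CCl4 series. Library A at 4 weeks stood apart from the other 4-week libraries. Its score on the first principal component of log2(CPM + 1), an axis that held 70.6% of the variance, was 78.2, against 51.3, 38.1 and 45.6 in libraries B, C and D. The 8-week libraries scored 69.1, 70.4 and 60.5, so the groups overlapped only through library A, which lay beyond every 8-week library. Vehicle libraries lay between -94.5 and -88.1 and 1-week libraries between -18.3 and -11.6. On the second component, with 11.5% of the variance, 8-week library B (32.9) and 4-week library A (27) lay together, away from the other 5 libraries (-6.5 to 5.5). These were the smallest libraries of their groups, as vehicle D and 1-week C, the highest of their own groups on this axis, were of theirs. After thinning of all 14 libraries to 2318311 counts, the scores on the second component were 31.9 and 27, against -6.1 to 6.1.

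**Figure D1:**
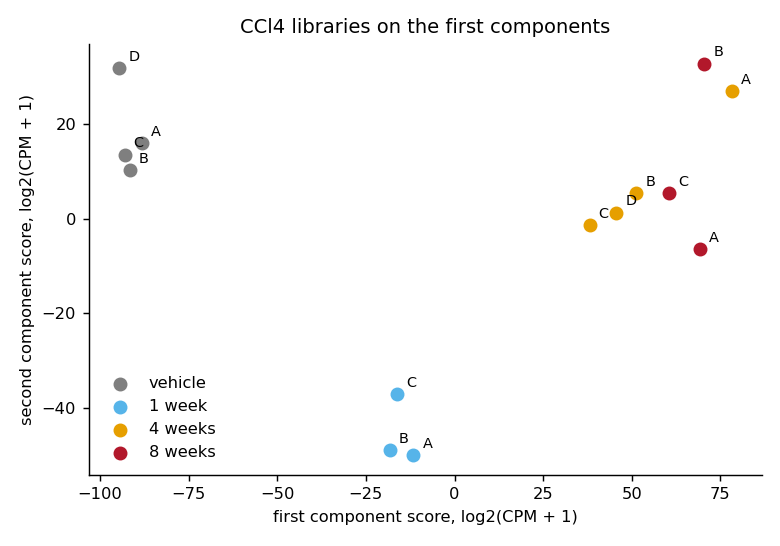
Scores of the 14 CCl4 libraries on the first (x axis) and second (y axis) principal component of log2(CPM + 1), with 1 point per library, coloured by week and marked with its replicate letter. The 4-week and 8-week libraries lie at 38.1 to 78.2 on the x axis, with 4-week library A beyond the 8-week libraries.

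No row was called at 8 against 4 weeks by the main test, edgeR's quasi-likelihood test, where a call needed a false discovery rate (FDR) no higher than 0.05 and an average log2CPM over 2. Of 12176 rows above that level, 0% were higher and 0% were lower at 8 weeks. The lowest FDR was 0.0676, shared by 10 rows. At an unadjusted p below 0.05, 1068 rows were higher and 756 lower among the 13513 rows in the fit, 13.5% of them. In this fit the differences lay close to the threshold, and the tool and single libraries changed on which side they fell. Fitted on the 4-week and 8-week libraries alone, the lowest FDR was 0.165, and 1214 rows had an unadjusted p below 0.05.

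The late differences were small beside the early ones. The median absolute log2 fold change (log2FC) was 0.215 between 4 and 8 weeks, about the median standard error of 0.22. It was 0.526 between vehicle and 4 weeks and 0.372 between vehicle and 1 week. A difference of 2-fold or more was fitted for 5.44% of rows at 8 against 4 weeks, against 28% at 4 weeks against vehicle. By the edgeR test, 25.5% of 12033 rows rose and 26% fell from vehicle to 4 weeks. From vehicle to 8 weeks 23.6% rose and 26.6% fell, and from vehicle to 1 week 15.1% rose and 11.3% fell. Over the 12176 rows, the group means were 44 apart at 4 and 8 weeks (Euclidean distance of log2(CPM + 1)), 146.7 apart at vehicle and 4 weeks, 160.3 at vehicle and 8 weeks, and 91.2 at 1 and 4 weeks.

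**Figure D2:**
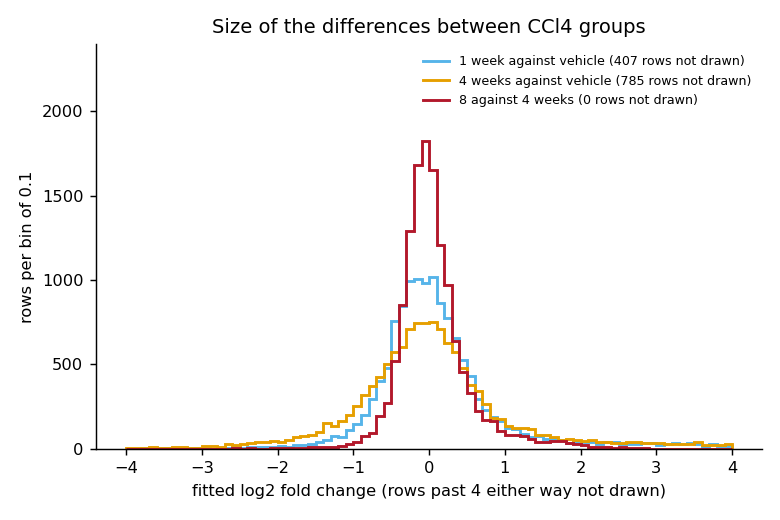
Number of rows (y axis, per bin of 0.1) by fitted log2FC (x axis) for 3 comparisons of CCl4 groups, with 13513 rows each; 407 rows of the 1-week and 785 of the 4-week comparison lie past 4 and are not drawn. The 8 against 4 week values crowd around 0, with a median absolute log2FC of 0.215.

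A p that misses the threshold does not show that a row stayed the same, so the 95% interval of each log2FC was read as well. Of the 12176 rows, 79.7% (9707 rows) had an interval within 1 log2 unit of 0, which leaves out a 2-fold difference in either direction. An interval within 1.5-fold was reached by 39.8%. The median half-width was 0.442. The intervals depended on the level: among rows with a mean log2CPM of 2 to 4, 47.3% lay within 1 log2 unit, against 91.8% of those between 6 and 8. The interval reached 4-fold in 338 rows (2.78%). Of the 3067 rows that had risen by 4 weeks, 67.2% lay within 1 log2 unit, and of the 3133 that had fallen, 83.7%.

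Distances between mice of the same week overlapped those between weeks. The 12 pairs of a 4-week and an 8-week library were 42.5 to 90.9 apart (median 65.8), the 6 pairs within 4 weeks 37.6 to 81.3 (median 60.7) and the 3 pairs within 8 weeks 44.1 to 75.1 (median 56.2). The mean distance between weeks was 7.11 larger than that within weeks (one-sided exact permutation test over 35 groupings, p = 0.171, smallest p possible 0.0286). The spread within a group was wider late than early. The median standard deviation of log2(CPM + 1) over rows was 0.277 at 4 weeks (n = 4) and 0.282 at 8 weeks (n = 3), against 0.198 in vehicle (n = 4) and 0.15 at 1 week (n = 3). It passed 0.5 in 17.5% and 17.2% of rows at 4 and 8 weeks, and in 7.57% and 4.76% at vehicle and 1 week. Whether the spread differed between weeks was not tested.

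Every 8-week library was above every 4-week library in 580 rows (4.76% of 12176) and below in 450 (3.7%), where the main test called 0%. With no difference between weeks, a row would separate fully in each direction in a share of 0.0286 of the 35 groupings. Rows are not independent, and the shares were not tested against this value. Appearance or loss of a row was rare. Only 15 of 23999 rows had fewer than 3 counts in each 4-week library and at least 3 in each 8-week library, and 12 rows had the reverse.

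Other tools called rows. DESeq2 called 210 rows higher (1.72%) and 72 lower (0.59%), and the edgeR exact test, the test of the study's pipeline, called 199 higher (1.63%) and 84 lower (0.69%). These lists shared 249 rows in the same direction, 88.3% of the DESeq2 calls and 88% of the exact test's. limma voom, added after the data were seen, called 62 higher and 8 lower. With a weight per library, limma voom called 1501 rows higher (12.3%) and 1251 lower (10.3%). Its weights were 4.46 for 8-week library C and 3.33 for 4-week library D, and 0.21 to 0.65 for the other 5 libraries, so these calls rest mostly on 1 mouse of each week.

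Single libraries decided the count as well. Without 4-week library A, the edgeR quasi-likelihood test called 430 rows higher (3.52%) and 139 lower (1.14%). Without 4-week library C it called 129 higher and 88 lower. Without 4-week B or D, or any one of the 8-week libraries, it called 0 rows, with lowest FDRs between 0.121 and 0.238. Of the 282 DESeq2 calls, 193 (68.4%) were also among the 569 calls made without library A (33.9% of these).

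**Figure D3:**
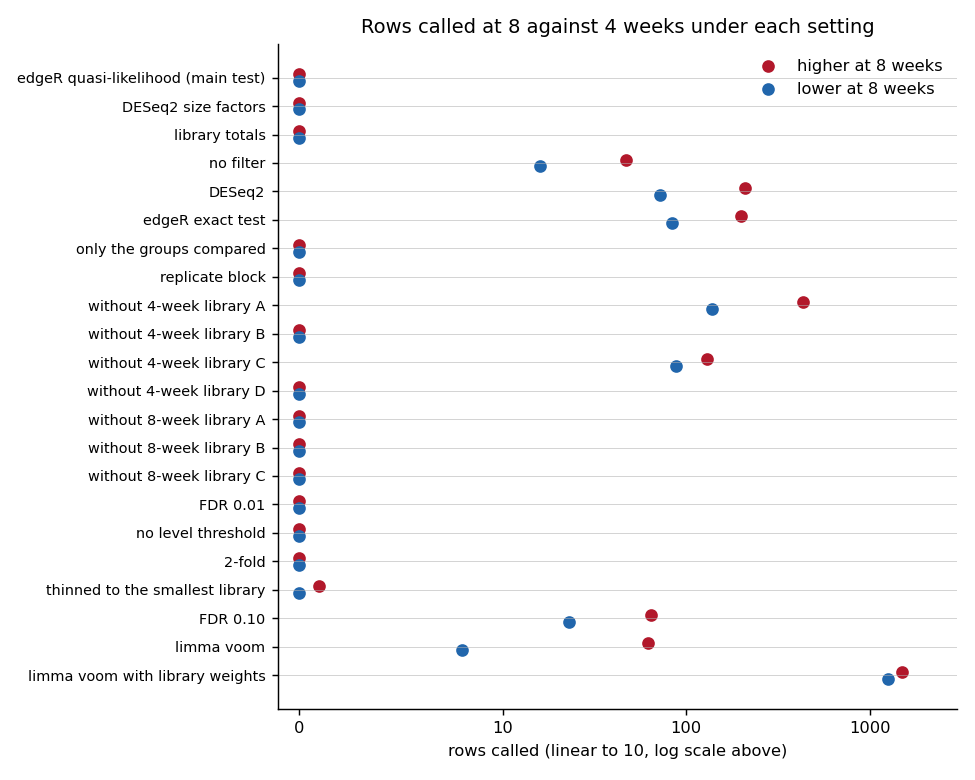
Rows called higher (red) and lower (blue) at 8 than at 4 weeks (x axis, linear to 10 and log scale above) under each test or setting (y axis). The main test and the settings that keep 4-week libraries A and C in the quasi-likelihood test lie at 0 or, thinned, at 1, apart from no filter and an FDR of 0.10; DESeq2, the exact test and limma lie above.

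Since the main test called no row, 0 rows followed the change from vehicle to 4 weeks, 0 opposed it and 0 changed late only. Where other settings made calls, both directions were present. Among the DESeq2 calls, 114 rows had risen by 4 weeks and were higher still at 8 weeks and 7 had fallen and were lower still, so 121 followed. A further 47 had risen and were then lower and 38 had fallen and were then higher, so 85 opposed, and 76 were called at 8 against 4 weeks only. The edgeR exact test gave 121, 85 and 77. The balance turned with the mice included. Without 4-week library A, 342 rows followed and 86 opposed, and without 4-week library C, 54 followed and 114 opposed. The comparisons share the 4-week libraries, so an error in a 4-week value enters them with opposite signs.

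Rows at an unadjusted p below 0.05 and above the level threshold, 1652 in number, are given as a description of what lay near the threshold. Of these, 508 (30.8%) went on in the direction of the change by 4 weeks, 484 (29.3%) went against it, and 660 (40%) had not been called at 4 weeks. The 404 rows that rose and were then higher had a median log2FC of 3.13 from vehicle to 4 weeks and of 0.78 from 4 to 8 weeks. The 321 rows that rose and were then lower had medians of 0.97 and -0.57, and stood 0.38 above vehicle at 8 weeks. Among rows that had fallen, 104 were lower still (medians -0.65 and -0.46) and 163 higher again (medians -1.06 and 0.65). Of the rows not called at 4 weeks, 361 were higher (median 0.95) and 299 lower (median -0.48). Toward higher values, a difference of 2-fold or more was fitted in 101 of the 404 rows, 46 of the 163 and 172 of the 361. Toward lower values it was fitted in 34 of the 321 rows, 3 of the 104 and 10 of the 299.

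Over all rows called by 4 weeks, late differences in both directions left medians near 0. The 3067 rows that had risen had a median log2FC against vehicle of 0.60 at 1 week, 1.14 at 4 weeks and 1.10 at 8 weeks, with 0.02 between 4 and 8 weeks (quartiles -0.25 and 0.34; 404 higher and 321 lower at an unadjusted p below 0.05). The 3133 rows that had fallen had medians of -0.23, -0.83 and -0.84, with -0.02 between 4 and 8 weeks (quartiles -0.17 and 0.16; 174 higher and 107 lower, here with no level threshold on the late comparison). Over all 13513 rows the median between 4 and 8 weeks was -0.01.

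The 10 rows at the lowest FDR are described by library, and were chosen after their values were seen. In 8 of them the level had risen by 4 weeks and was higher at 8 weeks, in 1 it had fallen and was higher, and in 1 it was lower at 8 weeks alone. Row 1661 is among the 8 by its edgeR FDR at 4 weeks against vehicle (2e-05). Its mean level there was under the threshold, so it was not called. Row 9219 stood at 0.66 to 0.77 CPM in vehicle and at 14.8, 18.1 and 7.45 CPM at 1 week. It stood at 8.78, 8.65, 16.7 and 10.4 CPM in 4-week libraries A to D and at 38, 45.3 and 29.1 CPM in 8-week libraries A to C. All 8-week libraries were thus above all others, while the 4-week and 1-week libraries overlapped. The log2FC at 8 against 4 weeks was 1.74 ± 0.29 (SE; edgeR FDR 0.0676, DESeq2 FDR 0.000191). Rows 12263 and 21309 also had all 8-week libraries above all others, with overlap between 1 and 4 weeks. Their means fell further from 1 to 4 weeks, from 24 to 13.6 CPM and from 24.2 to 12.9 CPM, against 13.5 to 11.1 CPM in row 9219. Row 12263 stood at 11.4, 10.6, 20.6 and 12.1 CPM at 4 weeks and at 43.6, 55.4 and 33.5 at 8 weeks. Row 21309 stood at 11.4, 6.75, 20.6 and 12.9 CPM at 4 weeks and at 34, 68.6 and 40.3 at 8 weeks. In these 3 rows library C was the highest of the 4-week libraries and B of the 8-week libraries. Their log2FC was 1.68 ± 0.30 for row 12263 and 1.86 ± 0.33 for row 21309. In the WD series, none of the 3 passed the edgeR test at 24 weeks against chow (row 9219, log2FC -0.31, FDR 0.741; row 12263, -1.09, FDR 0.116; row 21309, -1.19, FDR 0.0961).

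Row 5900 had the smallest standard error of the 10. It stood at 4.18 to 6.8 CPM in vehicle and at 41.3, 49.3 and 32.4 CPM at 1 week. At 4 weeks it was at 31.8, 25.7, 35.3 and 38.6 CPM and at 8 weeks at 79.1, 71.5 and 63.8 CPM, with no overlap between these groups. Its log2FC was 1.12 ± 0.19 at 8 against 4 weeks and 2.55 ± 0.21 at 4 weeks against vehicle (edgeR FDR 8.2e-08). It also rose in the WD series, by a log2FC of 1.75 at 24 weeks (edgeR FDR 0.000832) and of 1.45 from 12 to 16 weeks (edgeR FDR 0.0113).

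Rows 21147, 287 and 1661 were at or next to 0 in vehicle, high at 1 week, lower at 4 weeks and high again at 8 weeks. Row 21147 had 0 counts in each vehicle library and stood at 37, 23.3 and 35.4 CPM at 1 week. It stood at 17, 8.86, 12 and 9.06 CPM at 4 weeks and at 32.7, 47.4 and 34 CPM at 8 weeks. The 8-week values lay within or above the range at 1 week, and the 4-week values below both. Row 287 had a single count in vehicle library A and none in B, C and D. It stood at 30.4, 17.8 and 25.4 CPM at 1 week, at 11.6, 12.5, 8.04 and 8.63 at 4 weeks and at 33, 21.2 and 30.3 at 8 weeks. Row 1661 had 0 counts in vehicle and stood at 14, 7.19 and 10.5 CPM at 1 week. It stood at 8.78, 6.12, 3.33 and 2.59 CPM at 4 weeks and at 27.2, 27.1 and 21.3 at 8 weeks, and its 4-week and 1-week ranges overlapped. The log2FC at 8 against 4 weeks was 1.69 ± 0.27 for row 21147, 1.48 ± 0.26 for row 287 and 2.29 ± 0.38 for row 1661 (edgeR FDR 0.0676 for each). No fold against vehicle is given for them, since it would rest on the prior count of the fit. In the WD series all 3 rose from 12 to 16 weeks, with edgeR FDRs of 0.00902, 0.027 and 0.0126.

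Row 19825 stood at 17.6, 9.92, 28.6 and 14.9 CPM at 4 weeks and at 42.3, 116 and 48.3 CPM at 8 weeks, after 5.28 to 7.63 CPM in vehicle. Library B carried much of its log2FC of 1.93 ± 0.35, which was 1.34 without it. In the WD series row 19825 rose at 24 weeks (log2FC 5.27, edgeR FDR 3.32e-06). Row 10820 was the one that had fallen. It stood at 8.06 to 12.4 CPM in vehicle, at 7.33 to 11.2 CPM at 1 week, at 1.03, 3.8, 4.51 and 3.45 CPM at 4 weeks and at 10.4, 14.8 and 13.1 CPM at 8 weeks. Its 8-week values were back in and above the vehicle range. The log2FC was 1.95 ± 0.34 at 8 against 4 weeks and -1.64 ± 0.33 at 4 weeks against vehicle (edgeR FDR 0.000579). These were low counts, 4 to 23 per 4-week library. In the WD series row 10820 rose at 24 weeks (log2FC 2.83, edgeR FDR 5.13e-05) and fell from 12 to 16 weeks (log2FC -1.66, edgeR FDR 0.0106). Row 8592, the single lower row of the 10, stood at 136.9 to 152.3 CPM in vehicle and 159.4 to 173.4 at 1 week. At 4 weeks it stood at 105.6, 187.8, 88.2 and 127.9 CPM, on both sides of vehicle, and at 8 weeks at 57.2, 55.9 and 63.3 CPM, below all of them. The log2FC was -1.11 ± 0.20.

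**Figure D4:**
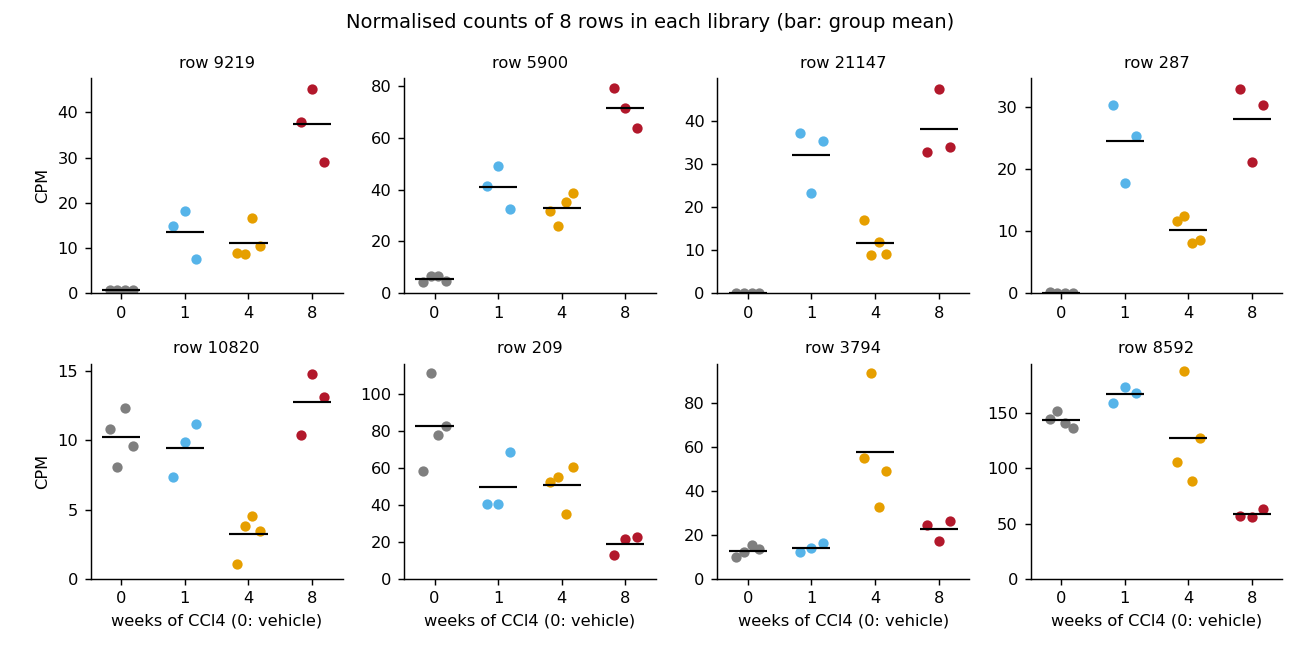
CPM (y axis, from 0) of 8 rows in each of the 14 CCl4 libraries by week of treatment (x axis, 0 for vehicle), with 1 point per library and a bar at the group mean. In the upper rows and row 10820 the 8-week points lie above all 4-week points, and in rows 209, 3794 and 8592 below them.

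The largest late differences in each direction class, among rows that did not overlap between 4 and 8 weeks, are given next, and were chosen after their values were seen. Row 12174 fell by 4 weeks (log2FC -1.63 ± 0.45, edgeR FDR 0.00665) and was lower at 8 weeks. It stood at 49, 79.1, 27.1 and 53 CPM at 4 weeks and at 14.7, 5.93 and 4.12 CPM at 8 weeks, a log2FC of -2.55 ± 0.58, and of -3.42 without 8-week library A. Its vehicle libraries ranged from 61.9 to 310.9 CPM. Row 209 fell by 4 weeks (log2FC -0.70 ± 0.24, edgeR FDR 0.0227) and stood at 52.4, 55.1, 35.1 and 60.4 CPM at 4 weeks and at 12.8, 21.6 and 22.6 CPM at 8 weeks. Its log2FC was -1.44 ± 0.28. Row 209 also fell in the WD series at 24 weeks, by 1.68 on the log2 scale (edgeR FDR 0.00306).

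Rows 11828 and 3794 peaked at 4 weeks. Row 11828 stood at 1.54 to 2.52 CPM in vehicle and 8.85 to 11.6 at 1 week. At 4 weeks it was at 32.3, 58.7, 18.6 and 28.3 CPM and at 8 weeks at 15.2, 5.5 and 12.6 CPM. It still stood above vehicle at 8 weeks (log2FC 2.48, edgeR FDR 0.000192). Row 3794 was at 54.7, 93.5, 32.7 and 48.9 CPM at 4 weeks and at 24.7, 17.4 and 26.4 CPM at 8 weeks, after 9.91 to 15.5 CPM in vehicle and 12.3 to 16.3 at 1 week. Library B was the highest 4-week library in both rows and library C the lowest. The log2FC at 8 against 4 weeks was -1.57 ± 0.36 for row 11828 and -1.31 ± 0.29 for row 3794. Neither passed the edgeR test in the WD series at 24 weeks (log2FC 1.27, FDR 0.129 and 0.17, FDR 0.766). Both rose in culture by day 12 (log2FC 2.50 and 3.52), as 43.4% of 11820 rows did. This was not particular to them. Rows 9219, 5900, 21147, 21309 and 12263, higher at 8 weeks, rose there too (log2FC 4.09, 3.18, 6.03, 8.04 and 3.00), while rows 20312, 9392 and 5133 fell.

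Among rows with the largest differences toward higher values, 8-week library B was the highest of its group. So was 4-week library C, except in row 9392, where library D was slightly higher. The values moved in opposite directions without B and without C. Row 10821 was at 3.1, 4.64, 23.7 and 4.96 CPM at 4 weeks and at 25, 100.7 and 39.8 CPM at 8 weeks, with 0 counts in vehicle. Row 13046 was at 6.97, 6.54, 19.2 and 8.41 CPM at 4 weeks and at 26.3, 74.5 and 28.9 at 8 weeks. Row 247 was at 6.19, 4.22, 16.7 and 11 CPM at 4 weeks and at 24.3, 118.5 and 27.4 at 8 weeks. Its vehicle libraries stood at 29.1, 15.4, 2.25 and 19.2 CPM and its 1-week libraries at 19.9, 25 and 9.78 CPM, so 8-week libraries A and C lay within the vehicle range and library B alone above it. The log2FC at 8 against 4 weeks was 2.55 for row 10821 and 1.80 without library B, 2.03 and 1.41 for row 13046, and 2.52 and 1.42 for row 247. Without 4-week library C it was 3.66 for row 10821. Row 23897 stood at 1.29, 1.69, 20.2 and 4.74 CPM at 4 weeks and at 25.6, 95.7 and 28.4 CPM at 8 weeks. Its log2FC was 2.77, with 1.92 without 8-week library B and 4.21 without 4-week library C. It was grouped as not called at 4 weeks because its mean level was under the threshold there, although its FDR was 0.00895 by edgeR. Rows 20312 and 9392, which fell by 4 weeks, were higher at 8 weeks by 1.97 and 1.94 on the log2 scale, and by 1.21 and 1.41 without library B. Row 20312 stood at 9.55, 8.44, 25.9 and 18.8 CPM at 4 weeks and at 38.3, 117.7 and 34.9 CPM at 8 weeks, within a vehicle range of 12.8 to 95 CPM except in library B. Row 9392 stood at 4.9, 5.49, 10.8 and 11 CPM at 4 weeks and at 27.4, 52.5 and 15.5 CPM at 8 weeks, all within its vehicle range of 5.16 to 76.6 CPM. In the WD series rows 10821, 13046, 247, 23897, 20312 and 9392 rose at 24 weeks, as 26.3% of rows did. Their log2FC there was 7.46, 5.61, 2.90, 4.98, 2.21 and 3.14 (edgeR FDR 0.000319 or lower). The 8-week library B of CCl4 was the smallest library, and its part in these rows beyond the values without it was not tested.

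Lower rows that had not been called at 4 weeks included row 11465 and row 4201. Row 11465 stood at 45 to 49.7 CPM in vehicle, at 47.5, 77.7, 36.3 and 36.9 CPM at 4 weeks and at 15.7, 27.5 and 20.4 CPM at 8 weeks. At 1 week it stood at 25.9, 25.8 and 34 CPM, below vehicle (log2FC -0.74, edgeR FDR 0.0384) and overlapping the 8-week range, so its lower level was not seen late only. Its log2FC at 8 against 4 weeks was -1.26 ± 0.26, and at 8 weeks it was below vehicle (log2FC -1.19, edgeR FDR 0.00136). It fell in the WD series at 24 weeks too (log2FC -1.19, edgeR FDR 0.00435), but rose in culture by day 12 (log2FC 1.99, edgeR FDR 5.67e-11). Row 4201 stood at 196.7, 409.1, 133.9 and 272.3 CPM at 4 weeks and at 118.4, 96.5 and 109.8 CPM at 8 weeks, a log2FC of -1.22 ± 0.30. At the highest levels the differences were small. Row 5133 was at 479.4 to 665.6 CPM at 4 weeks and at 696.8, 762.2 and 697.2 CPM at 8 weeks (log2FC 0.35 ± 0.15). Row 15582 was at 443.4 to 554.3 CPM at 4 weeks and at 401.4, 360.2 and 402.8 CPM at 8 weeks (log2FC -0.33 ± 0.13).

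Libraries of other mice were then used to place the late difference, since vehicle, 1-week, WD and IVT libraries share none with the 4 and 8 week groups. Rows that rose from vehicle to 1 week lay slightly above 0 at 8 against 4 weeks, with a median log2FC of 0.10 and 59.4% of 1775 rows above 0, against 48.4% of all rows. At an unadjusted p below 0.05, 306 of them were higher and 132 lower. Rows that fell by 1 week had a median of -0.04, with 45.4% of 1324 above 0. As none was called late by the main test, 0 called rows moved the same way by 1 week. Of the DESeq2 calls, 88 of the 210 higher rows had risen by 1 week and 18 had fallen, and of the 72 lower rows 5 had fallen and 25 had risen. The 1-week calls here were also DESeq2's, and their share over all rows was not counted. By the edgeR test 15.1% of 11733 rows rose by 1 week and 11.3% fell. As these shares come from another test, whether the 88, 18, 25 and 5 were more or fewer than among all rows was not tested.

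Rows that rose with WD lay mostly above 0 at 8 against 4 weeks of CCl4, and rows that fell mostly below. In the WD series 26.3% of 12131 rows rose and 18.4% fell at 24 weeks against chow by the edgeR test. Of the rows that rose there and were in the CCl4 fit, 76.1% of 3007 lay above 0 at 8 against 4 weeks of CCl4, with a median log2FC of 0.26, and 674 were higher and 67 lower at an unadjusted p below 0.05. Of the rows that fell there, 29.3% of 2228 lay above 0 (median -0.12, 27 higher and 157 lower). From 12 to 16 weeks of WD 9.45% rose and 3.78% fell. The rows that rose in that step lay above 0 at 8 against 4 weeks in 85.1% of 1149 cases (median 0.36, 304 higher and 7 lower), and those that fell in 28.1% of 445 (median -0.13). From 16 to 24 weeks of WD 0% rose and 0% fell (lowest edgeR FDR 0.999), with 241 rows higher and 80 lower at an unadjusted p below 0.05. Of the DESeq2 calls, 132 of the 210 higher rows had risen at 24 weeks of WD and 2 had fallen. Of the 72 lower rows 13 had fallen and 6 had risen. The 13 are near the share of all rows that fell there (18.4%), so they say nothing particular about the lower rows. The 6 are under the share of all rows that rose there (26.3%). Without 4-week library A, 353 of the 430 higher rows had risen with WD and 3 had fallen, and 49 of the 139 lower rows had fallen and 4 had risen. Rows are not independent replicates, and 7 mice carry all of these shares.

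Rows that changed in culture lay close to the median of all rows. From day 0 to day 12 of IVT 43.4% of 11820 rows rose and 39.7% fell. Rows that rose lay above 0 at 8 against 4 weeks in 45.5% of 4951 cases (median -0.03), and rows that fell in 43.4% of 4586 (median -0.04). Of the 24 rows named above, 7 (rows 10821, 23897, 247, 10820, 287, 1661 and 19825) were too low in the IVT libraries to enter the fit there.

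With the mouse as the unit, each library was given a score, the mean log2(CPM + 1) of the rows that rose less that of the rows that fell, set to 0 for the vehicle mean. On the vehicle to 1 week change, the 4-week libraries scored 2.54, 2.33, 2.16 and 2.23 and the 8-week libraries 2.67, 2.27 and 2.45. The 1-week mean of 2.35 is no fair level to compare them with, since the rows were called on those libraries. The means of 2.32 ± 0.17 (SD, n = 4) and 2.46 ± 0.20 (SD, n = 3) differed by 0.143 (two-sided exact permutation test, p = 0.343). On the WD change at 24 weeks the means were 1.92 ± 0.39 and 2.39 ± 0.31, a difference of 0.461 (exact permutation p = 0.171), after 0.731 at 1 week. On the 12 to 16 week WD change, added after the data were seen, they were 2.60 ± 0.63 and 3.09 ± 0.12, a difference of 0.492 (exact permutation p = 0.229), after 1.40 at 1 week. There 4-week library A scored 3.54, above all 8-week libraries (2.97 to 3.21), while the other 4-week libraries scored 2.21 to 2.37. The differences, in this order, were 0.218, 0.652 and 0.806 without 4-week library A. They were 0.039 on the first score without 8-week library A, 0.287 on the second without 8-week library B and 0.363 on the third without 4-week library C. With 4 against 3 libraries the smallest two-sided p is 0.0571, so none of these 3 scores could reach 0.05.

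**Figure D5:**
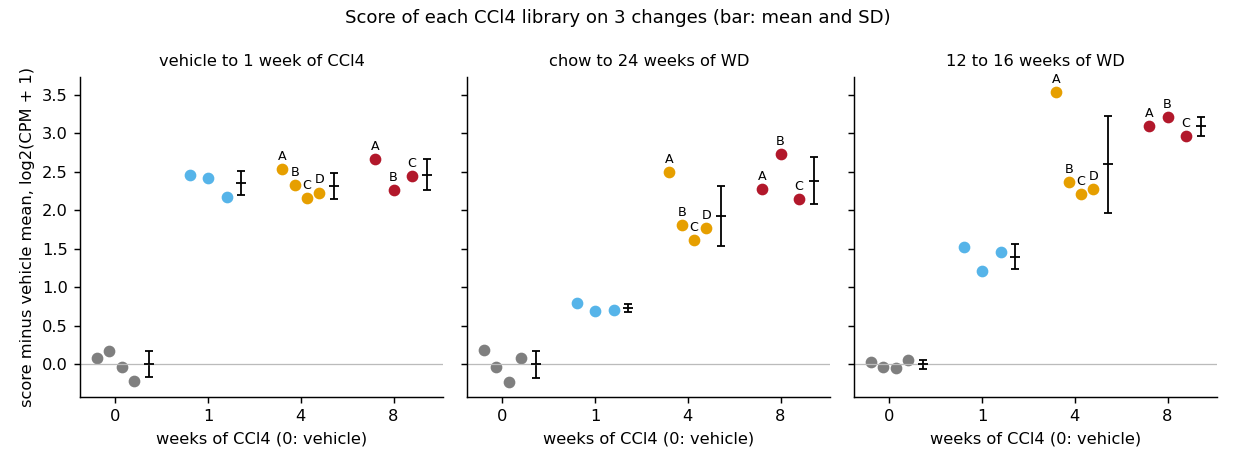
Score of each CCl4 library (y axis, mean log2(CPM + 1) of risen less fallen rows, minus the vehicle mean) by week of treatment (x axis, 0 for vehicle) on 3 changes, the first defined on the vehicle and 1-week libraries shown and the others on WD libraries; letters name the 4-week and 8-week libraries, and bars give the mean and SD. The 4-week and 8-week libraries overlap on each, and on the third 4-week library A (3.54) lies above all 8-week libraries.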

How the data were processed

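Stellate cell mRNA (polyA-selected, NEBNext Ultra, Illumina) had been aligned to mm10 with STAR. The authors deposited raw exon counts per gene, made with HOMER on both strands, for 1 transcript per gene and at most 3 reads per position, with no normalization. Versions were not given in the sources used here. The command in the table headers names other source libraries, so columns were assigned by their titles. All value columns were used. Of 23999 identifiers 23659 matched RefSeq, but the counts did not follow them, and rows were left unnamed. Lines of the CCl4, WD and IVT tables were taken as the same gene, with rank correlations of 0.8906 to 0.9452 between groups.

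Counts of all 14 CCl4 libraries were fitted together with edgeR 4.0.16 in R 4.3.3 (TMM, filterByExpr, quasi-likelihood test, Benjamini-Hochberg over all rows). CPM used TMM-scaled totals. A call needed an FDR no higher than 0.05 and an average log2CPM over 2 in the groups compared. WD and IVT tables were fitted separately in the same way. DESeq2 1.42.0, the edgeR exact test, limma 3.58.1, other scalings and filters, a replicate block and leaving out each library were alternatives. The fit was tested on simulated counts. Scores and distances used exact permutation tests over libraries. Totals in the CCl4 series ran from 2318311 to 7576527. The comparison, row lists and tests were chosen with earlier results of these data known. The rule for rows to name (the largest called differences per direction class without overlap, at a mean log2CPM above 4) found none, so it was applied to rows at an unadjusted p below 0.05, with the 10 rows at the lowest FDR added.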

Additional observations from a re-analysis of the deposited data

Results flagged for a closer look

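Of 65 groups of 4 libraries tested, 2 held a library far from the other three, and chance gives about 1 in 20. On the 12 to 16 week WD change, 4-week library A scored 3.54 and the nearest 4-week library 2.373. The other is row 287 in vehicle, where library A held 1 count (0.2201 CPM) and the rest held 0.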

How the results depend on the processing

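No row was called at 8 against 4 weeks, in either direction, with DESeq2 size factors, library totals, only the compared groups, an FDR of 0.01, no level threshold or a 2-fold minimum. The replicate letter as a block also gave 0 calls, and 0 rows that moved the same way by 1 week. Whether letters paired the mice could not be settled from so few libraries. Deviations of same-lettered 4-week and 8-week libraries correlated at -0.202, -0.277 and 0.218, and those of differently lettered ones at -0.232 to 0.302. Calls for rows higher, lower, following, opposing and late only were 47, 16, 33, 16 and 14 with no filter, 210, 72, 121, 85 and 76 with DESeq2, 199, 84, 121, 85 and 77 with the edgeR exact test, and 1, 0, 0, 1 and 0 after thinning. Added after the data were seen, an FDR of 0.10 gave 64, 23, 46, 25 and 16, limma voom 62, 8, 47, 7 and 16, and limma voom with library weights 1501, 1251, 1025, 813 and 914. Leaving out 1 library gave 0 to 430 higher, 0 to 139 lower, 0 to 342 following, 0 to 114 opposing and 0 to 141 late rows, above 0 only without 4-week A or C. Score differences kept their sign in every setting run, from 0.039 (without 8-week A) to 0.241 on the 1-week change, 0.287 to 0.652 at 24 weeks of WD and 0.363 to 0.806 at 12 to 16 weeks. The 24 rows named kept their direction in all 408 refits, and 128 of the refits passed the FDR threshold. These rows were chosen on the same libraries and did not overlap between 4 and 8 weeks. Their kept direction was thus largely set by the choice and is no separate support. The cause of the differences between tools was not tested. Depth limits low rows most: at a mean log2CPM of 2 or less, 5.31% of rows had an interval within 2-fold.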
